A study of Mus musculus with 12 samples.

Results

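RNA-binding proteins that set neuronal splicing and RNA stability were followed in neurospheres, floating cultures of neural stem/progenitor cells (NSPCs). The 10 genes, taken by symbol from 24525 in the count tables, were Ptbp1, Ptbp2, Nova1, Nova2, Rbfox2, Srrm4, Elavl1, Elavl2, Elavl3 and Elavl4. All 10 were listed in every table. RNA-seq input libraries of 3 wild-type and 3 Ythdf2-/- samples were compared, all of the C57BL/6 strain, from E14.5 embryos and at passage 1, grown with EGF and bFGF. Ythdf2 is a reader of the RNA modification m6A and promotes decay of the RNAs that carry it. The Ythdf2-/- embryos carried a constitutive deletion, made with a ubiquitous Cre, that takes in the start of the gene, so every cell type of the culture lacked it. The samples were described as biological replicates, but the number of embryos behind each culture was not given in the sources used here. The matching m6A-IP samples were not analysed here.

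The switch from progenitor to neuron is accompanied by an exchange of these proteins. Ptbp1, the polypyrimidine tract-binding protein of dividing cells, holds neuronal exons out of mRNA and also holds down its paralog Ptbp2, whose level rises when neurons form and Ptbp1 is lost. Srrm4 then promotes the inclusion of neuronal microexons, the Nova and Rbfox proteins direct further neuronal exons through YCAY and GCAUG elements, and the ubiquitous U-rich element binder Elavl1 (HuR) is joined by its neuronal relatives Elavl2 (HuB), Elavl3 (HuC) and Elavl4 (HuD).

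The libraries held 11029827 to 13185778 counted reads, of which 8289 to 10785 fell on the 10 regulators. Levels are given as reads per 1000000 counted reads, scaled between libraries by the TMM method (CPM). Ythdf2 itself had 71.9, 73.3 and 91.4 CPM in the wild type and 11.7, 14.7 and 11.1 CPM in Ythdf2-/-. Ythdf2 RNA in the mutant was thus at 15.8% of the wild-type level (log2 fold change -2.66, SE 0.183, edgeR adjusted p = 0.0547). It passed the threshold in 7 of 16 alternatives, among them leaving out the third wild-type library (-2.54, SE 0.144, edgeR adjusted p = 0.0203) and DESeq2 (adjusted p = 1.65e-30), with adjusted p-values up to 0.9999. From raw counts the fitted log2 fold change was between -2.78 and -2.54 in each, while from FPKM, which rests on few reads, it was 0.32. Wild-type replicate 3 stood apart from the rest, with a mean Spearman correlation over genes of 0.900 with the other libraries against 0.962 to 0.970 for those, and the first principal component (70.9% of the variance) placed it alone at one end. In this library the summed neuron markers reached 2049 CPM against 1271 to 1494 CPM in the other 5, with 7 of 13 markers highest there, 2 lowest and Slc17a6 at 0 in every library. Its oligodendrocyte lineage markers summed to 4200 CPM against 1731 to 2164 (5 of 8 highest there, 3 lowest) and its astrocyte markers to 7739 against 2411 to 4926 (3 of 6 highest). The neural progenitor markers were split, with Sox2, Pax6, Hes1, Hes5 and Msi1 highest in this library and Nes, Vim and Fabp7 lowest, and their sum of 3451 CPM against 4850 to 6546 followed the abundant Nes, Vim and Fabp7. Microglia, endothelial and mesenchymal markers summed to 9.98 CPM or less in every library, and Ptprc was at 0 throughout. Markers also moved with genotype, as 6 of the 37 tested had groups that did not overlap, against 10.2% of all genes, among them Olig1 and Cspg4, higher in every mutant library, and Stmn2, Mbp and Gfap, lower in each. The astrocyte filament gene Gfap had 436.7, 625.0 and 3046 CPM in the wild type and 127.4, 87.7 and 5.55 CPM in the mutant (log2 fold change -4.22, SE 1.30, unadjusted p = 0.0166, edgeR adjusted p = 0.999). The other astrocyte markers were split. Aqp4 and Aldoc had log2 fold changes below zero (-1.70 and -0.66), and Slc1a3, S100b and Aldh1l1 above zero (0.34, 0.22 and 0.11). The neuronal gene Stmn2, low in every library, had 1.45 to 1.54 CPM in the wild type and 0.0853 to 0.592 CPM in the mutant (unadjusted p = 0.00914, edgeR adjusted p = 0.999). Of the other tested neuron markers, Snap25, Nefm and Gad2 had log2 fold changes above zero (0.09 to 0.22). Dcx, Syt1, Rbfox3, Tubb3, Gad1, Gap43 and Map2 had them below zero (-3.51 to -0.02). The differences between genotypes are therefore given with and without wild-type replicate 3, and the part that the cell mixture had in the values was not tested. In RNA from whole cultures, fewer cells of a type and less RNA per cell cannot be told apart.

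None of the regulators differed between the genotypes at an adjusted p under 0.05. Of the 10, 9 passed the filter on low counts, and 0 of 9 were called by edgeR, where 0 of 13112 genes were called in all (0%). At an unadjusted p under 0.05, 0 of 9 passed, against 476 of all genes (3.63%). DESeq2 called 31 genes and limma-voom 0, and neither called a regulator. The 9 had 2 log2 fold changes above zero and 7 below, with a median of -0.16 against -0.01 over all tested genes. In 0 of 9 did the CPM values of the genotypes fail to overlap, against 10.2% of all genes. Without wild-type replicate 3 the pattern of signs turned to 7 above and 2 below, with a median of 0.06 against 0.01 over all genes, and 3 of 9 (Ptbp1, Nova1 and Nova2) reached an unadjusted p under 0.05 where 16.6% of all genes did. In that setting 0 of 9 were called and 2 of 13283 genes were (0.0151%), and the groups did not overlap for the same 3 of 9 regulators against 39% of all genes. Limma-voom with quality weights, which gave replicate 3 the lowest weight, called 0 of 9 where 1.15% of all genes were called. At an unadjusted p under 0.05 it had 3 of 9 (Ptbp1 at -0.31, Nova2 at 0.42 and Elavl4 at -0.43) where 28.1% of all genes passed. These shares of the 9 rest on few genes.

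**Figure D1:**
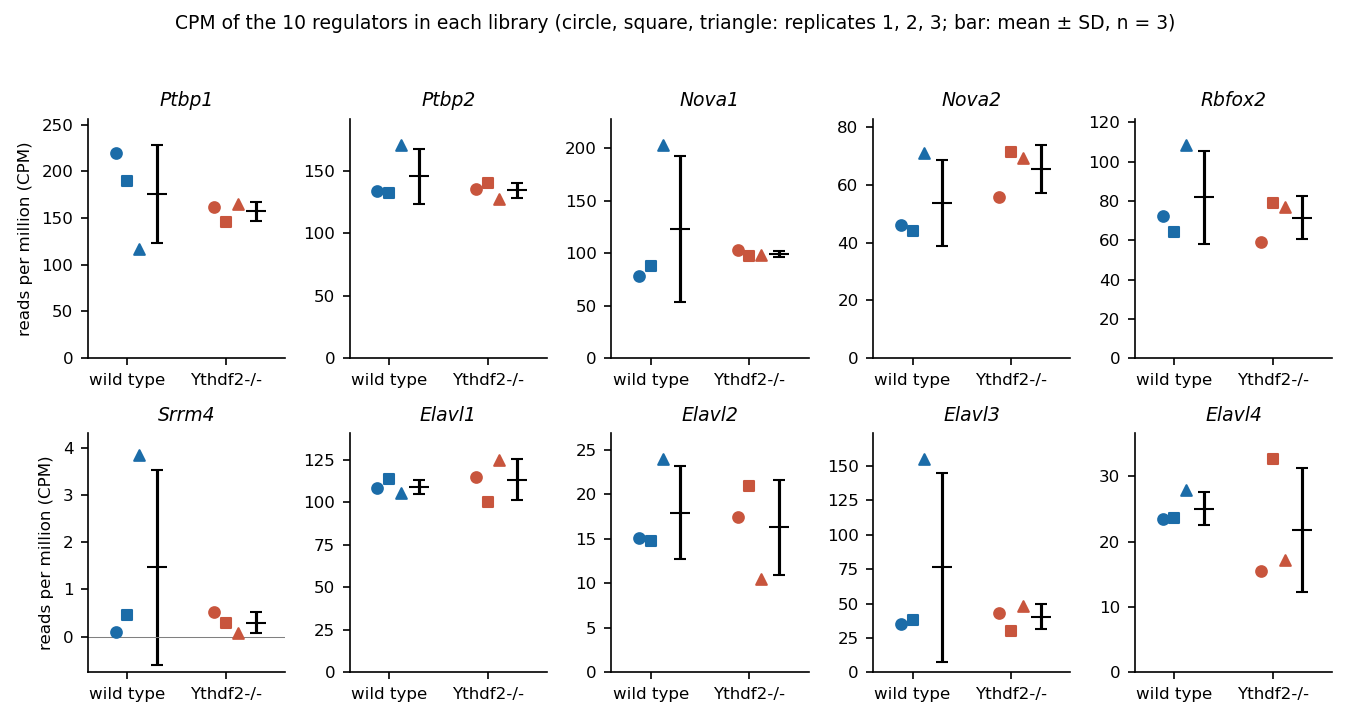
CPM (vertical axis, linear) of each of the 10 regulators in the 3 wild-type (blue) and 3 Ythdf2-/- (red) libraries, with the replicate number given by the symbol and the mean ± SD (n = 3) as a bar. The blue triangle, wild-type replicate 3, lies above all other libraries for Ptbp2, Nova1, Rbfox2, Srrm4, Elavl2 and Elavl3 and below them for Ptbp1.

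Ptbp1 and Nova2 were the regulators with the lowest unadjusted p-values once wild-type replicate 3 was left out, one lower and one higher in Ythdf2-/-, and their promoters are shown for that reason. The 250 bases before the RefSeq start site (GRCm38.p6, the assembly also named mm10) are chr10:79854182-79854431 for Ptbp1 and chr7:18925638-18925887 for Nova2, both on the plus strand and both outside the gene. Capitals mark matches to CAGNTG on either strand (read as CANCTG on the other), an E-box that proneural transcription factors can bind.
Ptbp1: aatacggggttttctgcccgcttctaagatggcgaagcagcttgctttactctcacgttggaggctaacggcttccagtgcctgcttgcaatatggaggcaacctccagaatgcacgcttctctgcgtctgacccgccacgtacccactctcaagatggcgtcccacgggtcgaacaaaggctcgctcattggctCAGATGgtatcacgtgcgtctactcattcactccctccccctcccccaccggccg
Nova2: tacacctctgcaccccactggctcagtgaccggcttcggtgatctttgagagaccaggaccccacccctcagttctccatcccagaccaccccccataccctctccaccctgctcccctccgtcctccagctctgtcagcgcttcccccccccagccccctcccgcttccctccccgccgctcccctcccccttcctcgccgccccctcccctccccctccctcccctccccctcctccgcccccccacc
The Ptbp1 window held 1 match, 55 bases before the start, and the Nova2 window held 0. The 9 regulators with a promoter entry had 17 windows, some of them overlapping, and 7 of the 17 held a match, while 44.8% of 32407 promoter windows of the same length did. The letters alone say nothing about binding in these cells.

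Ptbp1 (chr10:79854432-79864435, plus strand) was the most abundant of the 10 per length. Its CPM was 220.1, 190.1 and 117.4 in the wild type and 162.1, 145.6 and 164.6 in Ythdf2-/-. The wild-type values thus spanned the mutant ones, with 2 libraries above and replicate 3 below every mutant library. The log2 fold change was -0.16 (SE 0.240, 95% interval -0.74 to 0.42, edgeR adjusted p = 0.999). Without wild-type replicate 3 it was -0.38 (SE 0.111, interval -0.65 to -0.11, unadjusted p = 0.0132, edgeR adjusted p = 0.219), and over all alternatives the adjusted p ran from 0.113 to 1. Reads on 4 Y-linked genes split the libraries across the genotypes, since wild-type replicates 1 and 2 and Ythdf2-/- replicate 3 had 1111 to 2147 such reads and the others had 0 or 1. Within the libraries with Y-linked reads Ptbp1 was lower in the mutant (164.6 against 220.1 and 190.1 CPM), and within those without it was higher (162.1 and 145.6 against 117.4 CPM). With a term for these reads the log2 fold change was 0.04 (SE 0.200). Exons of the genes Plppr3 and E130317F20Rik on the opposite strand overlap 468 bases of Ptbp1 exons, and whether counting used the strand was not given in the sources used here.

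Ptbp2 (chr3:119718741-119784647, minus strand), the neuronal paralog, had 134.1, 131.8 and 170.9 CPM in the wild type and 135.4, 139.8 and 127.4 CPM in Ythdf2-/-. Outside wild-type replicate 3 the values lay within 127.4 to 139.8 CPM. The log2 fold change was -0.12 (SE 0.145, 95% interval -0.47 to 0.23), and 0.01 (SE 0.0891, interval -0.20 to 0.23) without that library. Per length, the ratio of Ptbp2 to Ptbp1 was 0.535, 0.609 and 1.28 in the wild-type and 0.733, 0.843 and 0.680 in the Ythdf2-/- libraries. All mutant ratios were above those of wild-type replicates 1 and 2 and below that of replicate 3, the only library of the 6 in which Ptbp2 exceeded Ptbp1. Dlg4, which encodes the postsynaptic protein PSD-95 and whose transcript Ptbp1 and Ptbp2 are known to hold down through an exon, had 83.9, 87.8 and 72.9 CPM in the wild type and 80.4, 85.9 and 99.0 CPM in the mutant. Its log2 fold change was 0.12 (SE 0.139, 95% interval -0.22 to 0.45), and 0.04 (SE 0.116) without replicate 3. The count tables hold no exon-level values to show its splicing.

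Nova1 and Nova2 are KH-domain splicing factors of neurons. Nova1 (chr12:46697895-46819480, minus strand) had 78.7, 87.5 and 203.3 CPM in the wild type and 102.8, 97.1 and 98.2 CPM in Ythdf2-/-. Its mutant libraries lay close together, above wild-type replicates 1 and 2 and far below replicate 3, which held 2.19 times the mean of the other 5. It had a log2 fold change of -0.31 (SE 0.372, 95% interval -1.21 to 0.59) with all libraries and 0.26 (SE 0.0949, interval 0.03 to 0.49, unadjusted p = 0.0335, edgeR adjusted p = 0.264) without replicate 3. Over all alternatives its adjusted p ran from 0.216 to 1.

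Nova2 (chr7:18925888-18965319, plus strand), the paralog prominent in the neocortex, had 46.1, 44.1 and 70.8 CPM in the wild type and 55.8, 71.3 and 69.2 CPM in Ythdf2-/-. All mutant libraries lay above wild-type replicates 1 and 2, and replicate 3 lay among the mutant values. For Nova2 the log2 fold change was 0.29 (SE 0.223, 95% interval -0.25 to 0.83), and 0.54 (SE 0.134, interval 0.21 to 0.86, unadjusted p = 0.00663, edgeR adjusted p = 0.190) without replicate 3. Leaving out wild-type replicate 1 or 2 instead moved it the other way, to 0.19 (SE 0.255) and 0.16 (SE 0.245). Its adjusted p over all alternatives ran from 0.0728, in limma-voom with quality weights, to 1. Among the libraries with Y-linked reads it was 69.2 CPM in the mutant against 46.1 and 44.1, and among those without 55.8 and 71.3 against 70.8 CPM. In the deposited FPKM tables, where Nova2 rests on 18.8 expected counts in all, it went the other way, with 3.92, 1.11 and 3.16 FPKM in the wild type and 0, 0 and 0.54 in the mutant. There it was the 1 of 9 regulators whose groups did not overlap, against 5.83% of the genes tested by counts. Per length, Nova1 exceeded Nova2 in every library, by a ratio of 2.04, 2.37 and 3.43 in the wild type and 2.20, 1.63 and 1.70 in the mutant, and these ratios overlapped between the genotypes.

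Rbfox2 (chr15:77078990-77308434, minus strand), the member of the Rbfox family that progenitors already express, had 72.5, 64.3 and 108.6 CPM in the wild type and 59.0, 78.7 and 76.8 CPM in Ythdf2-/-. Only wild-type replicate 3 lay outside the range of 59.0 to 78.7 CPM. Its log2 fold change was -0.19 (SE 0.236, 95% interval -0.76 to 0.38), and 0.06 (SE 0.151, interval -0.30 to 0.43) without that library.

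Srrm4 (chr5:116439268-116592562, minus strand), the microexon regulator, was barely detected and did not pass the filter on low counts. It had 1, 6 and 42 reads in the wild-type and 6, 4 and 1 reads in the Ythdf2-/- libraries, so 42 of its 60 reads came from wild-type replicate 3. Per counted read, that library held 13.2 times the other 5 together (exact 95% interval 7.44 to 24.4). The ratio of Ythdf2-/- to wild type was 0.215 (0.101 to 0.419) with all libraries and 1.04 (0.369 to 3.17) without replicate 3. These intervals cover counting error only, and they rest on 11 mutant reads against 49 wild-type reads, or 7 without replicate 3. Rest, the repressor that keeps Srrm4 silent outside neurons, had 17.6, 18.9 and 28.0 CPM in the wild type and 22.6, 23.9 and 26.2 CPM in the mutant (log2 fold change 0.17, SE 0.216, and 0.41, SE 0.132, without replicate 3). It was named after its values were seen. Exons of Srrm4os on the opposite strand overlap 68 bases of Srrm4 exons.

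Elavl1 (chr8:4284781-4325140, minus strand) varied little, between 100.4 and 124.6 CPM over the 6 libraries. Its CPM was 108.3, 113.6 and 105.2 in the wild type and 114.9, 100.4 and 124.6 in Ythdf2-/-. The groups overlapped, and wild-type replicate 3 lay inside the range of the mutant. On the log2 scale the difference was 0.06 (SE 0.127, 95% interval -0.25 to 0.36), and 0.03 (SE 0.116) without replicate 3.

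Elavl3 (chr9:22015005-22052146, minus strand), an early marker of newly formed neurons, had the largest fitted difference and the widest interval of the 9 tested regulators. Its CPM was 35.4, 38.1 and 155.1 in the wild type and 43.2, 30.4 and 48.0 in Ythdf2-/-. Wild-type replicate 3 was 3.97 times the mean of the other 5, which lay within 30.4 to 48.0 CPM with the genotypes interleaved. The log2 fold change of -0.91 (SE 0.610, 95% interval -2.38 to 0.57, edgeR adjusted p = 0.999) became 0.14 (SE 0.201, interval -0.35 to 0.63) without that library. It was -1.25 (SE 0.576) and -1.23 (SE 0.600) without wild-type replicate 1 or 2, and limma-voom gave -0.57 (SE 0.594) on all 6 libraries.

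Elavl2 (chr4:91211533-91400108, minus strand) had 15.2, 14.7 and 23.98 CPM in the wild type and 17.5, 21.0 and 10.5 CPM in Ythdf2-/-, with log2 fold changes of -0.14 (SE 0.329) and, without replicate 3, 0.13 (SE 0.293). Elavl4 (chr4:110203737-110351939, minus strand) had 23.5, 23.6 and 27.9 CPM in the wild type and 15.5, 32.7 and 17.1 CPM in Ythdf2-/-, with log2 fold changes of -0.20 (SE 0.310) and -0.11 (SE 0.333). With the term for Y-linked reads Elavl2 was at -0.41 (SE 0.167, 95% interval -0.83 to -0.0027, unadjusted p = 0.0489, edgeR adjusted p = 0.455, which over all alternatives ran from 0.455 to 1), and Elavl4 at -0.33 (SE 0.308). In that fit Elavl2 was the 1 regulator of 9 with an unadjusted p under 0.05, as were 11% of all genes. Elavl4 rested on single mutant libraries, since it was at -0.60 (SE 0.176, 95% interval -1.05 to -0.15, unadjusted p = 0.0181, edgeR adjusted p = 0.9999) without Ythdf2-/- replicate 2, where 4.14% of all genes had an unadjusted p under 0.05, and at 0.0048 (SE 0.316) without Ythdf2-/- replicate 1. Its adjusted p ran from 0.170 to 1 over all alternatives. For both genes the mutant libraries spread over a range that took in wild-type replicates 1 and 2, and Ythdf2-/- replicate 2 was the highest mutant library. Elavl4 was the neuronal Elavl gene for which wild-type replicate 3, at 27.9 CPM, was not the highest library.

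Per length, Elavl2, Elavl3 and Elavl4 together stood to Elavl1 as 0.944, 0.923 and 2.53 in the wild-type and 0.896, 1.19 and 0.805 in the Ythdf2-/- libraries. Apart from wild-type replicate 3, the neuronal genes thus summed to about the level of Elavl1 in both genotypes, with the mutant ratios on both sides of the wild-type ones. Elavl3 alone made up 41.6%, 43.6% and 69.9% of the neuronal sum in the wild type and 50.4%, 30.6% and 57.5% in the mutant. Between the transcripts of any pair of the 10 genes in GENCODE M21, 0 identical stretches of 50 bases were shared. Near-identical stretches and other genes were not compared.

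**Figure D2:**
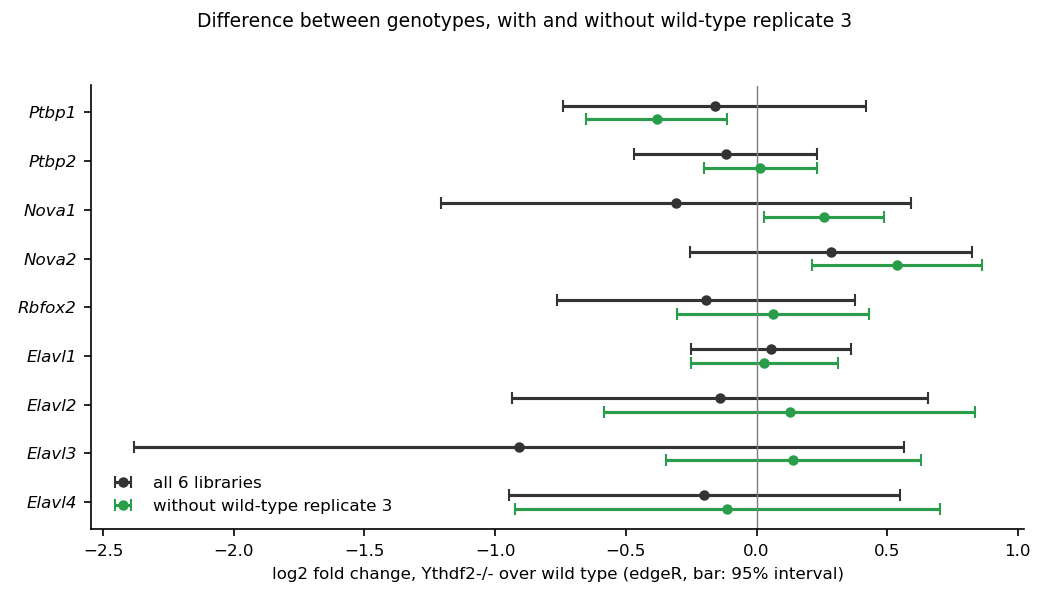
Log2 fold change of Ythdf2-/- over wild type from edgeR (horizontal axis, bars are 95% intervals) for the 9 regulators that passed the filter, with all 6 libraries (black) and without wild-type replicate 3 (green). With all libraries every interval spans zero, and without replicate 3 those of Ptbp1 (-0.65 to -0.11), Nova1 (0.03 to 0.49) and Nova2 (0.21 to 0.86) do not.

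**Figure D3:**
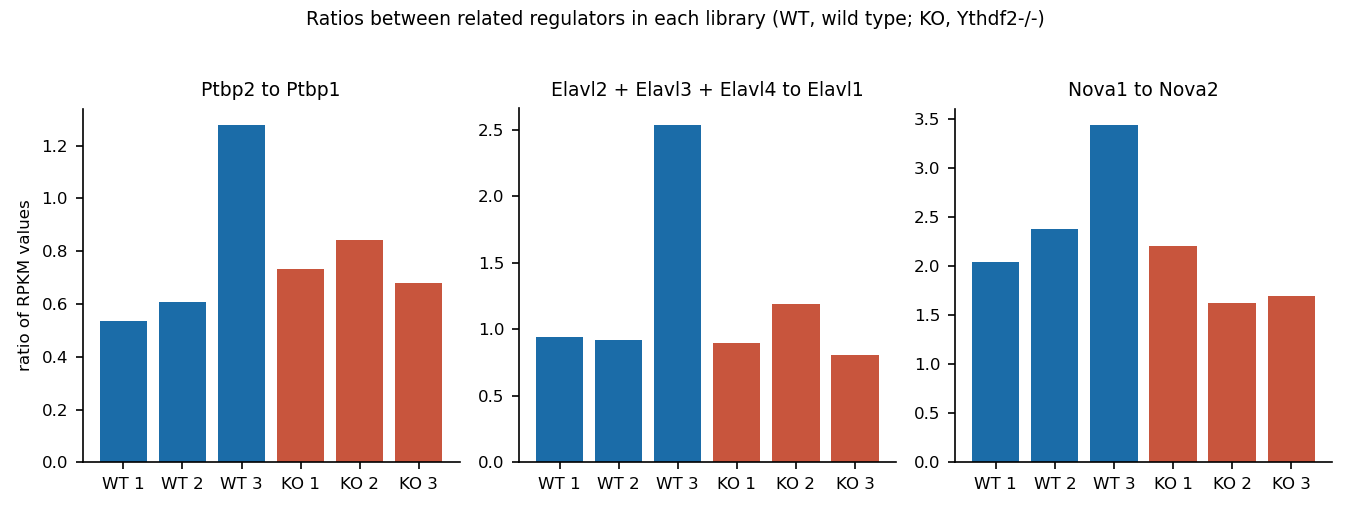
Ratio of reads per kilobase and 1000000 counted reads, TMM-scaled (RPKM), between related regulators in each library (vertical axis from zero), with wild-type libraries in blue and Ythdf2-/- in red. Wild-type replicate 3 has the highest bar in each panel, at 1.28, 2.53 and 3.43.

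Levels between genes were compared per length, as RPKM from the raw counts and the gene lengths in the deposited tables. Ptbp1 had 59.6 ± 17.9 RPKM (SD, n = 3) in the wild type and 53.4 ± 3.51 in Ythdf2-/-, followed by Ptbp2 with 43.3 ± 6.52 and 39.9 ± 1.86. Elavl1 came next with 18.1 ± 0.711 and 18.8 ± 2.02 RPKM, then Nova1 with 17.6 ± 9.93 and 14.2 ± 0.436, and Rbfox2 with 13.3 ± 3.84 and 11.6 ± 1.77. The lower part of the order held Elavl3 with 15.2 ± 13.6 and 8.07 ± 1.81 RPKM, Nova2 with 6.41 ± 1.78 and 7.81 ± 1.01, Elavl4 with 6.34 ± 0.638 and 5.52 ± 2.40, Elavl2 with 4.67 ± 1.36 and 4.24 ± 1.39, and Srrm4 with 0.196 ± 0.277 and 0.0396 ± 0.0288. In the wild type the ranges of Ptbp2 and Elavl1, and of Elavl2 and Srrm4, did not overlap, while every other pair of neighbours did. In Ythdf2-/- the overlapping neighbours were Elavl3 with Nova2, Nova2 with Elavl4 and Elavl4 with Elavl2. With the summed length of all annotated exons in place of the deposited length, 8 of 10 genes kept their place, and Elavl1 and Nova1 changed places. The order without wild-type replicate 3 was that of all libraries, while in the wild type alone Elavl3 came before Rbfox2.

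**Figure D4:**
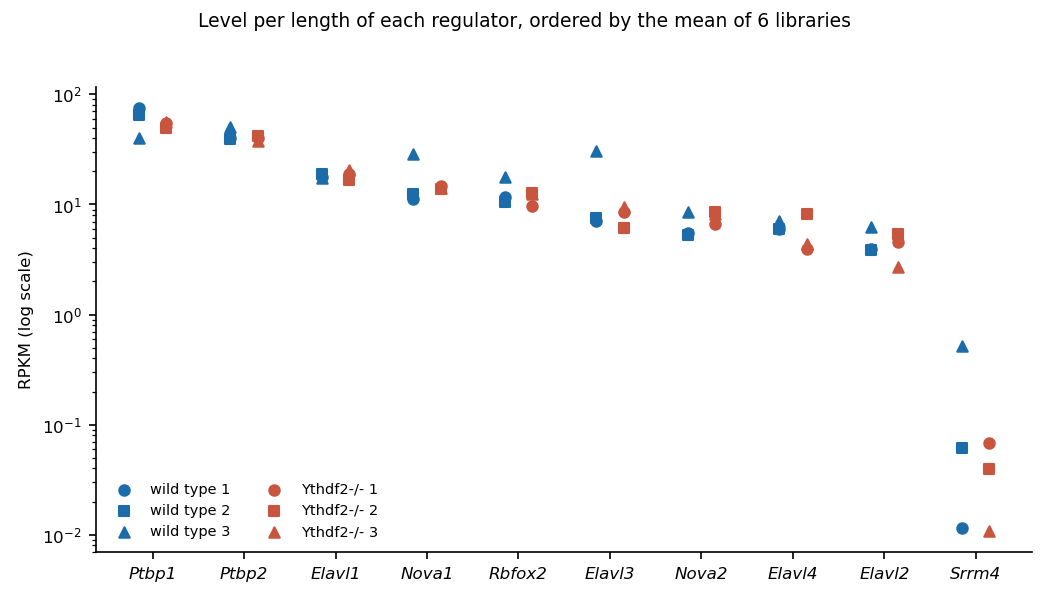
RPKM on a log axis for the 10 regulators, ordered by their mean over 6 libraries, with wild type in blue, Ythdf2-/- in red and the replicate given by the symbol. Ptbp1 and Ptbp2 lead, Srrm4 lies far below the rest, and the triangles of wild-type replicate 3 stand highest for Elavl3 (30.9 RPKM), Nova1 (29.0 RPKM) and Srrm4 (0.514 RPKM) within their columns.

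The position of wild-type replicate 3 was set against all genes as a description. Of the 9 tested regulators, 5 (Ptbp2, Nova1, Rbfox2, Elavl2 and Elavl3) were higher in this library than in all others and 1 (Ptbp1) was lower, while 33.8% of all tested genes were higher and 34.4% lower. Elavl3 lay far out, with 1.77% of the tested genes raised further, followed by Nova1 with 6.47%. Rbfox2 had 16.2%, Elavl2 17.4% and Ptbp2 27.8% of genes raised further, and Ptbp1 had 19.9% of genes reduced further. In the same library the neuroblast marker Dcx had 314.9 CPM against 8.36 to 13.1 CPM elsewhere, the myelin gene Mbp 573.1 CPM against 1.21 to 8.85 CPM, and the progenitor filament gene Nes 264.2 CPM against 724.8 to 1212 CPM. The progenitor transcription factor Sox2 went the other way, with 551.1 CPM against 315.8 to 426.2 CPM. The other lists also had members against their sums, as the growth cone gene Gap43 had 55.8 CPM against 74.1 to 176 CPM and the oligodendrocyte lineage factor Olig1 547.1 CPM against 874.4 to 1250 CPM. Nefl, Olig2 and Cspg4 were also lowest in this library.

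**Figure D5:**
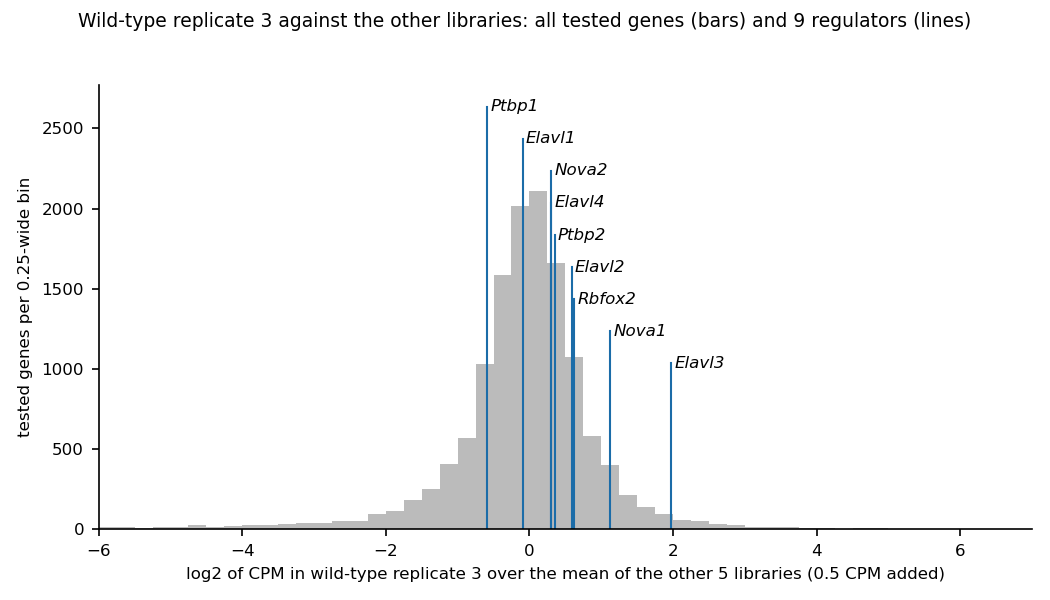
Number of tested genes (bars) by the log2 ratio of CPM in wild-type replicate 3 to the mean of the other 5 libraries, with 0.5 CPM added to both and values beyond the axis placed in the end bins. Lines mark 9 regulators, from Ptbp1 at -0.59 to Nova1 at 1.13 and Elavl3 at 1.98, and their heights serve the labels alone.

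Other regulators of neuronal and glial splicing, a list that also took in the repressor Rest, were also not called. Of 20 such genes, 17 were tested by edgeR and 0 were called, with 7 log2 fold changes above zero, 10 below and a median of -0.06. At an unadjusted p under 0.05 there was 1 of 17, beside the 3.63% of all genes. This was Celf4, a neuronal CELF-family factor (12.5 CPM in wild-type replicate 3, 2.74 and 2.14 CPM in the other wild-type and 1.28 to 1.999 CPM in the mutant libraries, with no overlap of the groups, as in 10.2% of all genes), with a log2 fold change of -1.89 (SE 0.751, 95% interval -3.71 to -0.08) that was -0.64 (SE 0.350) without that library. Srrm3, the paralog of Srrm4, had a log2 fold change of -1.42 (SE 0.792), which was -0.14 (SE 0.461) without replicate 3, and Rbfox1 one of 1.18 (SE 0.705), which was 0.93 (SE 0.751). DESeq2 and limma-voom also called 0 of 17.

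The most abundant of these genes per length was Qk, a KH-domain protein of glia and progenitors, with 268.2 ± 89.3 RPKM (SD, n = 3) in the wild type and 253.3 ± 28.4 in Ythdf2-/-. Its log2 fold change was -0.08 (SE 0.272), and 0.22 (SE 0.154) without replicate 3. The others of the 6 highest were Khdrbs1 (Sam68) with a log2 fold change of -0.06 (SE 0.122), Khdrbs3 (SLM2) with -0.21 (SE 0.352), Msi2 with 0.09 (SE 0.239), Celf1 with -0.12 (SE 0.122) and Msi1, like Msi2 a Musashi protein of progenitors, with 0.06 (SE 0.373). Without wild-type replicate 3, 9 were above zero and 8 below, the median was 0.13, 0 were called and 4 of 17 had an unadjusted p under 0.05, where 16.6% of all genes did. These 4 were Khdrbs3, lower in the mutant at -0.53 (SE 0.125), and Msi1, Msi2 and Rest, higher at 0.61 (SE 0.144), 0.39 (SE 0.106) and 0.41 (SE 0.132). With quality weights 8 of 17 had an unadjusted p under 0.05, where 28.1% of all genes did, and 0 were called. Without replicate 3 Khdrbs1 was at -0.11 (SE 0.094) and Celf1 at -0.17 (SE 0.0926). In wild-type replicate 3, 12 of the 20 were higher than in all other libraries and 2 were lower. The 12 include Celf6 and Khdrbs2, which did not pass the filter on low counts. Of all tested genes, 33.8% were higher in this library and 34.4% lower.

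The genes whose profile over the 6 libraries came nearest to that of a regulator were found by the root mean square difference of centred log2 CPM, a description over 6 libraries. Nearest to Ptbp1 were Fkbp3 (0.031) and Utp11l (0.037), both also lowest in wild-type replicate 3, with Fkbp3 at 44.6 CPM there against 56.6 to 88.3 CPM elsewhere. Nearest to Elavl3 were Wnk2 (0.096) and Tmem100 (0.112), with Wnk2 at 117.9 CPM in that library against 23.9 to 37.4 CPM elsewhere. Srrm4, low in counts, had Lims2 (0.342) and Cadm3 (0.344) as its nearest. Elavl4, whose highest library was Ythdf2-/- replicate 2, had Tcf12 (0.077) and Galns (0.084). The profile of Tcf12 ran from 402.1 CPM in Ythdf2-/- replicate 1 to 747 CPM in replicate 2 of that genotype.

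The transcripts differ in the short elements relevant to these proteins. In the longest protein-coding transcript of each gene, TTTNTTT, a U-rich element of the kind Elavl proteins bind, was densest in Elavl1 with 9.40 per kilobase, above 98.9% of 12288 tested genes. Elavl2, Nova1 and Elavl4 had 5.01, 4.89 and 4.58 per kilobase, Elavl3 had 1.2 and Ptbp1 0.631, where the median gene had 0.957. GGACT, a form of the motif found at m6A sites, was sparse in Ptbp2 with 0.265 and in Ptbp1 with 0.316 per kilobase, against 1.04 for the median gene, and reached 1.45 in Rbfox2 and 1.21 in Elavl4. Both were counted on the transcript strand with overlaps allowed, and no m6A signal of these genes was analysed here.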

How the data were processed

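Input RNA-seq libraries of 3 wild-type and 3 Ythdf2-/- neurosphere samples were analysed, grouped by title. Per the labels, Bowtie2 2.2.9, RSEM 1.2.15, featureCounts and mm10 were used. The paper's methods name TopHat. The authors deposited raw counts of reads per gene, not normalized. They also deposited tables of expected counts, TPM and FPKM from RSEM, whose expected counts summed to 1.97% to 2.40% of the raw counts. TPM was not used. The strand setting of the counting was not given in the sources used here.

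Raw counts were tested with edgeR 4.0.16 (TMM, filterByExpr, robust glmQLFit, glmQLFTest) with a model of genotype alone (R 4.3.3), on all 13112 genes that passed, with Benjamini-Hochberg adjustment and a threshold of 0.05. CPM and RPKM took the counted reads of the tested genes, scaled by TMM, as library size. SE is the log2 fold change over the root of F. DESeq2 1.42.0, limma 3.58.1 and limma on log2(FPKM + 1) were alternatives among 18, which include leaving out each library. Scripts were tested on simulated data. The step for Srrm4 used an exact conditional interval of 2 counts. Positions and promoters came from RefSeq GRCm38.p6. For a single gene, permuting 3 against 3 libraries exactly allows no p under 0.1. Replicates are separate samples per the labels, and p-values measure the spread between them.

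The genes and lists were chosen with earlier results of these data known. Named besides the 10 were Ythdf2, Dlg4, the 6 highest and 3 most different of 20 other regulators, 2 nearest genes for each of Ptbp1, Srrm4, Elavl3 and Elavl4, and markers. Rest was named after its values were seen. Not every marker is reported here.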

Additional observations from a re-analysis of the deposited data

How the results depend on the processing

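None of the 9 tested regulators was called under any of the 18 alternatives that tested it. Of 151 fold changes of single regulators, 128 kept their sign and 23 turned, 9 of these among 16 from FPKM. The counts of genes called were 1 with DESeq2 size factors, with no filter and with a minimum of 10 counts in every library, 31 with DESeq2, 151 with quality weights, 13 with the term for Y-linked reads and 2, 1 and 2 with FPKM at a pseudocount of 1, of 0.1 and with no filter. The median of the other regulators was 0.15 with quality weights. Without 1 library in turn, the genes called ran from 0 to 2 and this median from -0.13 to 0.13, highest without wild-type replicate 3.

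With quality weights the fold change was 0.0105 for Ptbp2, 0.25 for Nova1, 0.090 for Elavl2 and 0.16 for Elavl3, and that of Ptbp1 was 0.035 and that of Elavl2 -0.41 with the Y-linked term. Leaving out 1 library gave -0.38 to 0.034 for Ptbp1, -0.18 to 0.014 for Ptbp2, -0.55 to 0.26 for Nova1, 0.16 to 0.54 for Nova2, -0.34 to 0.064 for Rbfox2, -0.018 to 0.15 for Elavl1, -0.35 to 0.13 for Elavl2, -1.25 to 0.14 for Elavl3 and -0.60 to 0.0048 for Elavl4. Wild-type replicate 1 turned Ptbp1, wild-type replicate 3 Ptbp2, Nova1, Rbfox2, Elavl2 and Elavl3, Ythdf2-/- replicate 1 Elavl4, and Ythdf2-/- replicate 3 Elavl1 and Elavl2 (0.10). From FPKM, where the median of all genes was 0.11 at a pseudocount of 1, Ptbp2 was at 0.16, Nova2 at -1.60 and Elavl3 at 0.10, with and without the filter, and Rbfox2 at 0.20 with no filter. At a pseudocount of 0.1 Nova2 was at -3.76, Elavl3 at 0.46 and the median of the regulators at -0.43. By FPKM 1 regulator, Nova2, had groups that did not overlap (5.83% of all genes), and 0 of 10 kept their place in the order of levels when ties take their mean rank, although Elavl2 and Srrm4, tied at 0, still came last. The FPKM values rest on few reads.

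The replicate numbers as a block gave 0 called genes, and 183 at an unadjusted p under 0.05, but the numbers did not pair the samples (correlations of deviations from the group means -0.25, -0.24 and -0.39). The share of groups that do not overlap without wild-type replicate 3 was added after seeing the data. Srrm4 was limited by its low read count, 60 in all.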

Other observations

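In the deposited FPKM tables the 10 regulators together had 6.85 to 32.7 expected counts per library, against 8289 to 10785 raw counts. Srrm4 and Elavl2 were listed at 0 in all 6 libraries, although Elavl2 had 1250 raw reads, and Nova1 and Elavl4 were listed at 0 in 5 of 6. Elavl3 led these tables with a mean FPKM of 4.24 from 33.0 expected counts, ahead of Ptbp1 with 4.16 from 19, while by raw counts it had 4123 reads and Ptbp1 12259.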
